A study of Homo sapiens with 3 samples.

Results

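Of the 756 regions bound by BMAL1 in MDA-MB-231 cells, 329 lay away from promoters and were also bound by MAX. They were selected on measured values, as BMAL1 peaks that share at least 1 bp with a MAX peak and have no base within 300 bp of any annotated transcript's start site (TSS). The other BMAL1 peaks comprised 307 promoter sites bound by both factors, 94 distal peaks without MAX and a remainder at promoters without MAX. The MAX list held 13650 peaks, of which 6014 were distal and did not touch a BMAL1 peak.

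MDA-MB-231 is an established human breast adenocarcinoma line, derived from a pleural effusion and grown as adherent cells. The labels name no treatment other than fixation and no engineered change, and give all 3 libraries the same growth conditions. Cells were fixed for 10 min with 1% formaldehyde, and chromatin was immunoprecipitated with 4 µg of an antibody against BMAL1 or MAX. Each antibody gave 1 library and the input another, so no value has a replicate check, and every test below compares windows of these libraries rather than independent samples. The lists rest on 13866783 tags for BMAL1, 11545865 for MAX and 29308882 for the shared input.

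BMAL1 pairs with CLOCK to activate the genes of the circadian clock, among them the repressors that close its feedback loop. MAX is the common partner of MYC, which activates transcription, and of MNT and the MXD proteins, which repress it. Both kinds of dimer are basic helix-loop-helix proteins that recognise the E-box CACGTG, and sites far from a TSS are often enhancers that act on a gene at a distance.

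The sequences around the E-box closest to the BMAL1 summit are printed for 9 distal sites, because they show the element at the most enriched sites, at clock genes and at sites where MAX enrichment exceeded that of BMAL1. They are from the plus strand of hg19, and capitals mark each CACGTG or, at BHLHE40, the related E'-box CACGTT.
NR1D1 intron, chr17:38255391-38255436: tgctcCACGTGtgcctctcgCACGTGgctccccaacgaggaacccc
CSNK1D upstream, chr17:80246018-80246063: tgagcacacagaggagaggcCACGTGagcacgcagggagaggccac
HLF upstream, chr17:53315729-53315786: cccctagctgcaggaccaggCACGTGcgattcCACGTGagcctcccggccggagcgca
SSPN upstream, chr12:26267455-26267500: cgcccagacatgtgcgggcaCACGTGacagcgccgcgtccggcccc
TIMP3 upstream, chr22:33119835-33119880: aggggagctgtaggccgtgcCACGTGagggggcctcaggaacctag
CRY2 intron, chr11:45881414-45881459: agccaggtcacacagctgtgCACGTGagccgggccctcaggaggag
BHLHE40 downstream, with the E'-box, chr3:5028657-5028702: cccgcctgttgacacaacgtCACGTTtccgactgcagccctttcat
CFAP251 intron, chr12:122362766-122362811: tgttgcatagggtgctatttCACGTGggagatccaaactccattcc
NOTCH1 upstream, chr9:139462540-139462585: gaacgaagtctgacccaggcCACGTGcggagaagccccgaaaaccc

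The 3 sites with the highest BMAL1 enrichment lay beside clock genes. Enrichment is the height of the stacked fragments at the peak summit divided by the background that the peak caller took for the site. The lowest background that pileup and enrichment imply, 1.54 for BMAL1 and 1.28 for MAX, recurred at many sites. Whether the local input set it there was not tested. The most enriched BMAL1 peak of the whole list was in an intron of NR1D1, which encodes the repressor REV-ERBα, 1427 bp downstream of the TSS, with a fold enrichment of 126.8 for BMAL1 and 39.0 for MAX. That MAX value was also the highest among the distal sites bound by both, and it rests on the lowest MAX background of 1.28.

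A second site 7754 bp upstream of NR1D1 had values of 43.8 for BMAL1 and 17.8 for MAX, with both summits at the same base. The site 14470 bp upstream of CSNK1D, which encodes a kinase that phosphorylates PER proteins, had 70.1 for BMAL1 and 13.8 for MAX. At HLF, a gene of the PAR bZIP family whose members bind D-boxes, the site 26552 bp upstream had 68.2 for BMAL1 and 17.3 for MAX. Each of them was more enriched for BMAL1 than for MAX, and the CSNK1D and HLF windows each held 3 E-boxes.

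HLF was also the 1 distal site bound by both with a tandem element, a pair of E-boxes with 6 bases between them, printed above. CRY2, a repressor of CLOCK and BMAL1, had an intronic site 12405 bp from the nearest protein-coding TSS. It was 1100 bp from another CRY2 transcript's TSS, with values of 30.1 for BMAL1 and 7.62 for MAX. The 2 sites downstream of BHLHE40, which encodes the E-box-binding repressor DEC1, went the other way. At 7605 bp the enrichment was 15.3 for BMAL1 and 20.3 for MAX, and at 15605 bp it was 8.03 and 10.4. The first of these held an E'-box and no CACGTG in the peak.

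**Figure D1:**
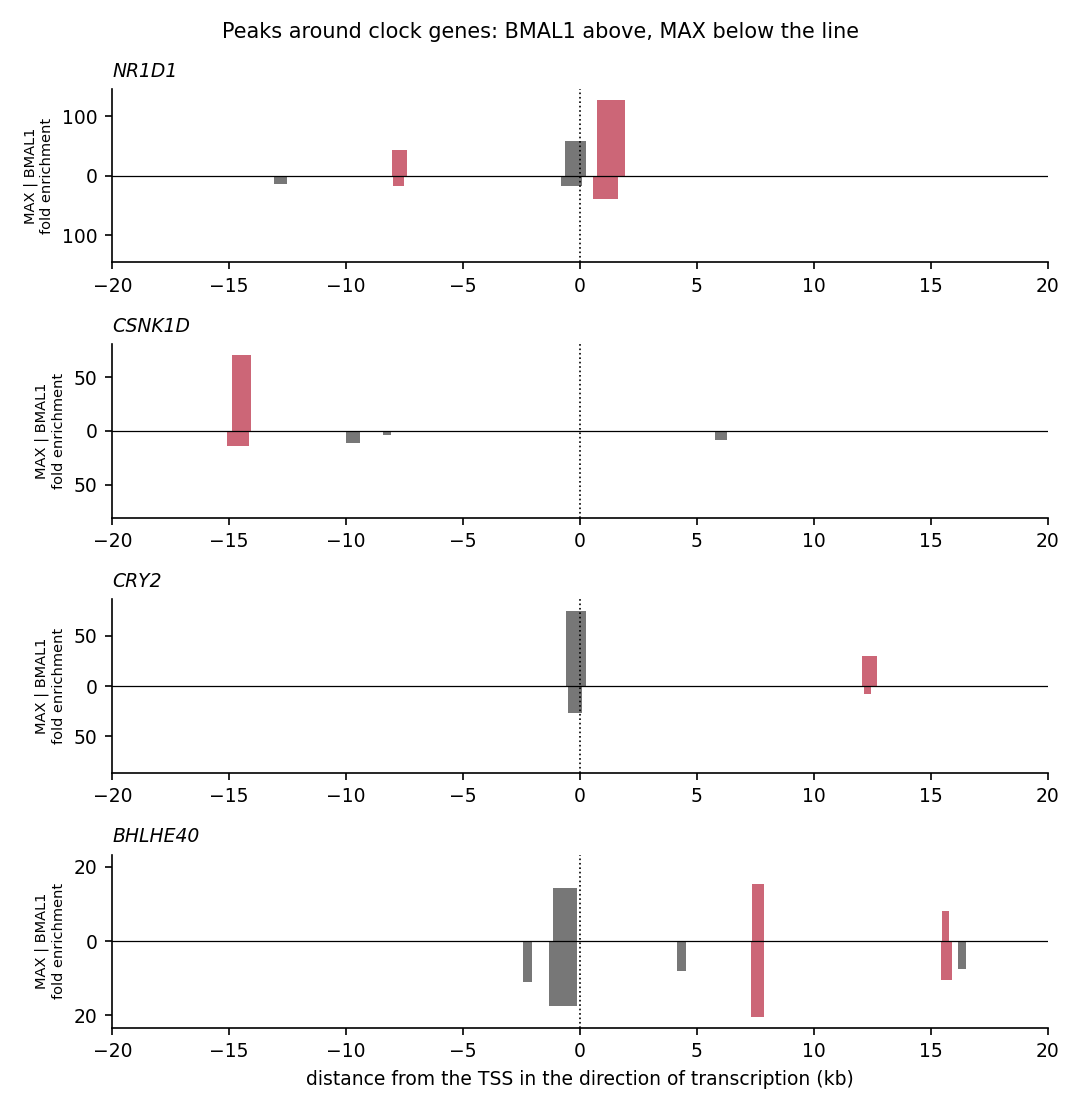
Peaks around 4 clock genes, placed by their distance in kb from a protein-coding TSS in the direction of transcription. BMAL1 fold enrichment is above and MAX fold enrichment below the line. Red bars are distal sites bound by both factors and grey bars other peaks. Each gene has its own vertical scale, and the intronic NR1D1 site reaches 126.8 for BMAL1.

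In total 7 of the 329 sites (2.13%) had as nearest or host gene a clock gene, from a list of 37 symbols of which 34 were in the annotation, while 0.584% of all 6332 distal MAX peaks did. Genes from a list of 18 of the MYC network were found at 3 sites (0.912%, against 0.363% of distal MAX peaks). They were a site in an intron of MNT and a pair of sites far downstream of MYC. The MNT site lay 1163 bp from the nearest protein-coding TSS and 549 bp from that of another MNT transcript. Its MAX peak itself came within 300 bp of a TSS, and the enrichment was 7.69 for BMAL1 and 19.3 for MAX. The MYC sites lay 339400 and 415596 bp downstream, with BMAL1 values of 6.08 and 10.4 and MAX values of 7.62 and 16.8.

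From a list of 44 genes of adhesion, cytoskeleton and epithelial-mesenchymal transition, members were nearest to or host of 2 sites (0.608%, against 1.53% of distal MAX peaks). These were SMAD7, an inhibitor of TGF-β signalling, and VCL, which encodes vinculin. The list does not cover every such gene. ITGB5, CTTN, BCAR1, CTNNA1, PTK2 and CADM1, looked up after the values were seen, are not in it. They were the nearest genes of other sites. The share of distal MAX peaks near them was not computed, and they do not change the shares of the list. No site had a gene of the lysosome and autophagy list, and a count of 0 of 329 allows a share of up to 0.912%, against 0.205% of distal MAX peaks. The shares are given as descriptions, since the lists were chosen with results of these data known.

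Outside the clock genes, the most enriched sites stood at genes of several functions. The site 7413 bp upstream of SSPN, which encodes sarcospan of the dystrophin complex, had values of 56.4 for BMAL1 and 25.8 for MAX. The site nearest to TIMP3, an inhibitor of metalloproteinases, was in an intron of SYN3 and had 49.0 and 20.3. The site in DLG5, a scaffold protein, had 42.6 and 22.1. All 10 sites of highest BMAL1 enrichment had a MAX value of at least 13.08, that of the site 69923 bp upstream of the acetyltransferase gene EP300.

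At other sites MAX was the more enriched factor. The highest MAX values after the NR1D1 intron were 36.2 in an intron of CFAP251, a gene of motile cilia, and 31.2 near IL17REL, with BMAL1 values of 15.2 and 11.6. The site 22058 bp upstream of NOTCH1, a receptor gene, had 28.5 for MAX and 8.01 for BMAL1. The highest ratio of MAX to BMAL1 enrichment was 3.98, upstream of the translation factor gene EIF2B2, where the values were 28.03 and 7.05. A ratio of 3.47 was found downstream of CCNE1, which encodes cyclin E1.

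Over the 329 sites the median enrichment was 9.69 for BMAL1 (quartiles 7.72 and 13.5) and 12.1 for MAX (9.39 and 16.6). MAX enrichment exceeded that of BMAL1 at 212 sites (64.4%), a share near that of the promoter sites bound by both (202 of 307, 65.8%). Among the 329 sites MAX was at least 2 times higher at 46, and BMAL1 at least 2 times higher at 20. The 2 lists have their own depth, duplicate limit and antibody, so the ratio is a description of these lists and not of the amount of protein bound. The promoter sites bound by both had medians of 11.5 for BMAL1 and 16.5 for MAX, the distal BMAL1 peaks without MAX 8.85, and the distal MAX peaks without BMAL1 9.14. Spearman's rho between both values over the 329 sites was 0.259, with Pearson's r of 0.438 on the log2 scale. Both lists were called against the same input.

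**Figure D2:**
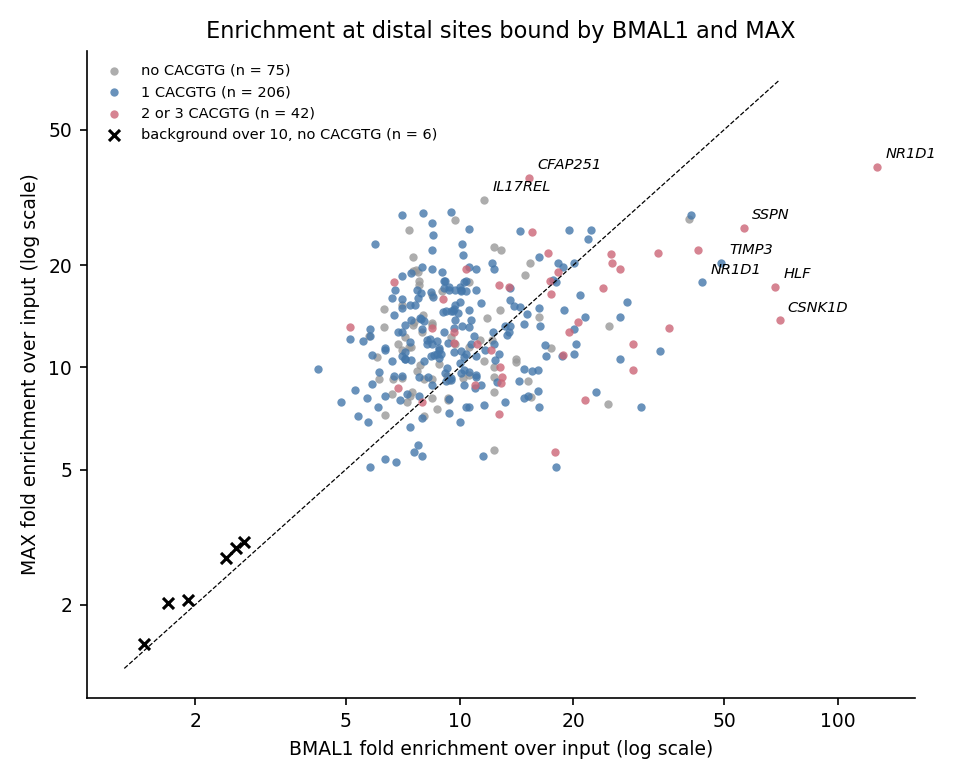
BMAL1 (horizontal) and MAX (vertical) fold enrichment on log scales, with 1 point for each of the 329 distal sites. Colours give the number of CACGTG in the 200 bp at the BMAL1 summit, and the dashed line marks equal values. Points with 2 or 3 E-boxes reach farthest to the right, and the 6 crosses are sites with a high local background.

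In 6 of the 329 sites the local background implied by the pileup and fold enrichment was 52.1 to 265, and in the other 323 it was at most 6.39. These 6 sites had BMAL1 values of 1.47 to 2.70 and MAX values of 1.53 to 3.07, the lowest among the sites, and none held an E-box or E'-box in the peak. Their nearest coding genes were ROCK1 for a pair of sites, with its TSS 15845 and 16693 bp away, and ZNF33B, PRIM2, FAM72B and ZNF722. The TSSs of the latter were 645616 to 1489975 bp away. A background over 10 was found at 1 of 307 promoter sites and at 11 of 94 distal BMAL1 peaks without MAX (11.7%). Without these 6 sites rho was 0.217 and r was 0.283.

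The sites were chosen by an overlap of at least 1 bp, so its extent is given as a description. The median shared length was 368 bp, 325 BMAL1 peaks were covered over at least 50% of their length, and the smallest overlap was 36 bp at SH3TC1. Summits of both factors were a median of 53 bp apart, against 55 bp at the promoter sites bound by both. At the distal sites, 253 pairs (76.9%) lay within 100 bp. The sites closest to the 300 bp promoter limit had their nearest edge 335 bp from a TSS near VAC14 (enrichment 9.25 for BMAL1 and 9.43 for MAX) and 343 bp at SEPTIN9 (12.4 and 10.5). The BMAL1 and MAX peaks that just failed it, and so counted as promoter sites, were 298 bp away at MNT (6.58 and 25.7) and 286 bp away at PFDN2 (9.30 and 7.62).

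The E-box, which played no part in the choice of the sites, was present in most of them. CACGTG reads the same on both strands, and it occurred in the 200 bp at the BMAL1 summit of 248 of 329 sites (75.4%, Wilson 95% interval 70.5 to 79.7, counting error only). In windows 2 kb to either side of the same summits it occurred in 21 of 658 (3.19%), a difference with an odds ratio of 92.9 (95% interval 56.2 to 153, two-sided Fisher's exact test, adjusted p = 7.1e-132 over 4 E-box comparisons). Of the sites, 206 held 1 E-box, 36 held 2 and 6 held 3. Across the whole peak, 271 sites held CACGTG, 17 an E'-box only and 41 neither.

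At the MAX summits of the same sites the E-box was present in 218 windows (66.3%), and in 1198 of 6014 distal MAX peaks without BMAL1 (19.9%). The odds ratio was 7.90 (6.23 to 10.0, Fisher's exact test, adjusted p = 6.1e-69). At 12 of the 329 sites the paired MAX peak itself came within 300 bp of a TSS. A pair of sites in SH3RF3 shared the same MAX peak, which entered for each. The part of these sites in the difference was not tested. Of all distal MAX peaks, 22.3% held the element. The distal sites bound by both also had a higher median MAX enrichment than the distal MAX peaks without BMAL1, and the part of peak strength in this difference was not tested.

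Promoter sites bound by both held the E-box in 245 of 307 windows (79.8%). This share was not distinguished from that of the distal sites, with an odds ratio of 0.775 (0.533 to 1.13, Fisher's exact test, adjusted p = 0.19). Distal BMAL1 peaks without MAX held it in 56 of 94 (59.6%), an odds ratio of 2.08 (1.28 to 3.37, Fisher's exact test, adjusted p = 0.0054). Without the sites of background over 10 in either set, the latter was 1.59 (0.941 to 2.70, Fisher's exact test, adjusted p = 0.12).

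The E-box closest to the BMAL1 summit was measured from both summits. Among the 271 sites with CACGTG in the peak, the closest one was a median of 25 bp from the BMAL1 summit (quartiles 9 and 52) and this same element was 45 bp from the MAX summit (18 and 91.5). It was within 50 bp of the BMAL1 summit at 202 sites and of the MAX summit at 146. The element was chosen as the one closest to the BMAL1 summit, which favours the smaller distance on that side. The distances therefore do not show which summit the E-box lay nearer to.

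**Figure D3:**
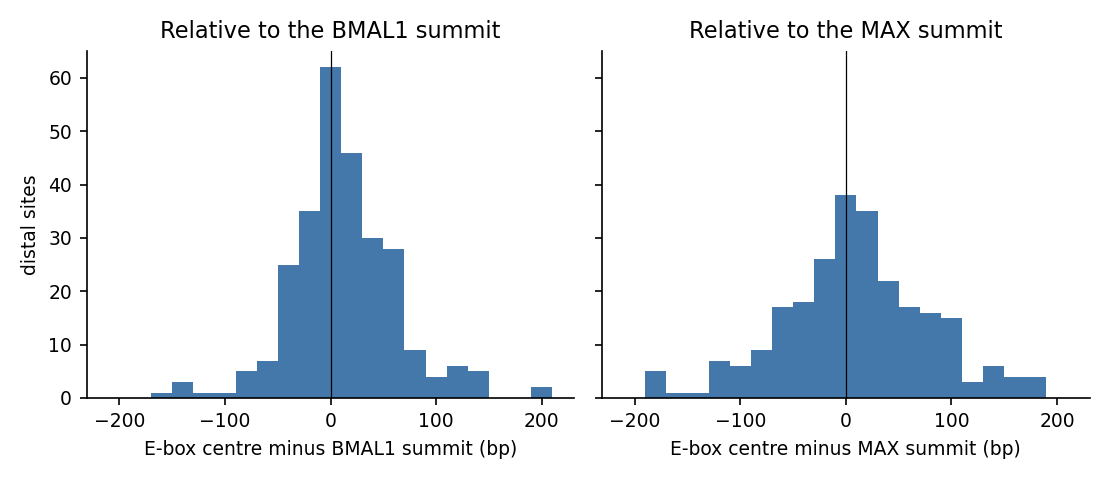
Number of distal sites by the distance in bp from the BMAL1 summit (left) or the MAX summit (right) to the centre of the E-box closest to the BMAL1 summit, in bins of 20 bp, for sites with CACGTG in the peak. The counts are highest around 0 in both panels, and more concentrated at the BMAL1 summit, by which the E-box was chosen.

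The share of sites with an E-box was larger among those more enriched for BMAL1. The sites were split by the same enrichment values that the peak calls rest on, and the E-box was compared between the groups. It was 62.7%, 74.4%, 78.0% and 86.6% from the lowest to the highest of 4 groups of 82 or 83 sites by BMAL1 enrichment. The highest and lowest group differed with an odds ratio of 3.85 (1.77 to 8.36, Fisher's exact test, p = 0.00059), and without the 6 high-background sites, all in the lowest group, with 3.10 (1.40 to 6.87, p = 0.0046). For groups by MAX enrichment the shares were 65.1%, 76.8%, 79.3% and 80.5%, and the odds ratio of 2.21 (p = 0.035, Fisher's exact test) became 1.76 (p = 0.14) without those sites.

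Sites with 2 or more E-boxes in the window (n = 42) had a median BMAL1 enrichment of 17.2 and MAX enrichment of 13.7. With 1 E-box (n = 206) the medians were 9.65 and 12.2, and without one (n = 81) 8.44 and 11.4. The median ratio of MAX to BMAL1 was 0.804 at sites with 2 or more, 1.28 with 1 and 1.19 without one. The site in ITGB5, which encodes integrin β5, was 1 of the 6 sites with 3 E-boxes and had values of 26.6 for BMAL1 and 19.5 for MAX.

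The bases next to the E-box differed between the distal sites and other peaks. The 10 possible sequences of an E-box with 1 base on either side, both strands counted together, were compared at the element closest to the summit, a comparison added after the data were seen. At MAX summits, CCACGTGG made up 9 of 218 E-boxes of the distal sites (4.13%) and 253 of 1198 of distal MAX peaks without BMAL1 (21.1%), an odds ratio of 0.161 (0.0814 to 0.318, Fisher's exact test, adjusted p = 2.3e-10 over 10 sequences). ACACGTGA went the other way, with 10.6% against 3.51% (odds ratio 3.25, 1.91 to 5.52, Fisher's exact test, adjusted p = 0.00026). Among all CACGTG in the genome these sequences made up 9.13% and 9.55%.

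Against promoter sites bound by both, at BMAL1 summits, CCACGTGA was less frequent at the distal sites, with 14.9% against 29.4% (odds ratio 0.421, 0.270 to 0.657, Fisher's exact test, adjusted p = 0.0013). TCACGTGA was also less frequent (0.806% against 4.49%, Fisher's exact test, adjusted p = 0.039), and ACACGTGG more frequent (12.5% against 5.71%, adjusted p = 0.039). For CCACGTGG the shares were 4.44% and 3.27% (Fisher's exact test, adjusted p = 0.71).

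Sites without an E-box or E'-box in the peak often held another sequence, CATGTG. Such a peak is shown for the 3 sites of highest BMAL1 enrichment without either element, in the 81 bases centred on the BMAL1 summit of the hg19 plus strand. Capitals mark CATGTG or CACATG, its other strand, and the AP-1 site TGAGTCA or TGACTCA.
LGALS3 upstream, chr14:55574638-55574718: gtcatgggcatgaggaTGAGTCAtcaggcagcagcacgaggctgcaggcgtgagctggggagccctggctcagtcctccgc
ZFYVE28 intron, chr4:2414843-2414923: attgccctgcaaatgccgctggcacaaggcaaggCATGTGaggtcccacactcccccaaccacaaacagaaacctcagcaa
PPARGC1A upstream, chr4:23947481-23947561: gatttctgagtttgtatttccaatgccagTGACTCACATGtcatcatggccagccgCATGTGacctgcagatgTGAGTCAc

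The site 16150 bp upstream of LGALS3, which encodes the lectin galectin-3, had an enrichment of 40.4 for BMAL1 and 27.3 for MAX. The intronic ZFYVE28 site had 24.8 and 13.2, with summits 345 bp apart. The site 55821 bp upstream of PPARGC1A, which encodes the metabolic coactivator PGC-1α, had 24.7 and 7.81. The LGALS3 sequence held an AP-1 site, ZFYVE28 held CATGTG, and PPARGC1A held both sequences, one pair of them overlapping.

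Of the 35 sites without an element and with a background of at most 10, 23 held CATGTG in the 200 bp at the BMAL1 summit (65.7%, 49.2 to 79.2), against 7 of 70 flanking windows (10.0%). The odds ratio was 17.2 (6.05 to 49.2, Fisher's exact test, adjusted p = 5.1e-08 over the 8 hexamers tested), and the sequence lay a median of 23 bp from the summit. CACGCG was found at 6 of 35 sites against 1 of 70 windows (adjusted p = 0.021, Fisher's exact test). At MAX summits, 20 of 35 such sites (57.1%) and 1143 of 3939 distal MAX peaks without BMAL1 and without an element (29.0%) held CATGTG (odds ratio 3.26, 1.66 to 6.39, Fisher's exact test, p = 0.00059). These hexamers differ from the E-box by 1 base and were tested after the data were seen.

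Other motifs were compared with the flanking windows of the same sites, on both strands and with adjustment over 9 motifs. The AP-1 site TGAGTCA, bound by FOS and JUN proteins, was present in 74 of 329 windows (22.5%) against 3.19% of flanks (odds ratio 8.80, 5.31 to 14.6, Fisher's exact test, adjusted p = 3.2e-20). The E'-box CACGTT was found in 12.8% against 4.10% (odds ratio 3.42, Fisher's exact test, adjusted p = 5.6e-06). GGAATG, bound by TEAD proteins, was found in 17.0% against 8.66% (odds ratio 2.16, Fisher's exact test, adjusted p = 0.00041), and the GC box GGGCGG in 17.6% against 9.73% (odds ratio 1.99, adjusted p = 0.0012).

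The CRE TGACGTCA occurred in 2 sites and 0 flanks (Fisher's exact test, adjusted p = 0.17). The D-box TTATGTAA occurred in 2 sites and 4 flanks (Fisher's exact test, adjusted p = 1), and the nuclear receptor element AGGTCA in 17.3% of sites and 16.3% of flanks (adjusted p = 0.81). None of these shares was distinguished from its flanks by Fisher's exact test.

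Between the sets, adjusted over 24 comparisons, AP-1 was more frequent at the distal sites than at promoter sites bound by both, where 7.49% held it (odds ratio 3.58, 2.18 to 5.89, Fisher's exact test, adjusted p = 7.8e-07), as was GGAATG (7.17%, odds ratio 2.66, adjusted p = 0.00075). The GC box was present in 57.0% of the promoter windows (odds ratio 0.161, Fisher's exact test, adjusted p = 2.7e-24). The median GC content was 57.0% in the distal windows and 66.0% in the promoter windows, and its part in these differences was not tested.

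Distal MAX peaks without BMAL1 held GGAATG at a share of 18.6%, against 20.4% at the MAX summits of the distal sites (odds ratio 1.12, 0.847 to 1.47, Fisher's exact test, adjusted p = 0.54). At distal BMAL1 peaks without MAX its share was 28.7% against 17.0% (odds ratio 0.509, 0.299 to 0.866, Fisher's exact test, adjusted p = 0.053). The distal MAX peaks without BMAL1 held AP-1 at a share of 23.2%, against 27.7% of the distal sites at that summit, which Fisher's exact test did not distinguish (odds ratio 1.26, 0.984 to 1.62, adjusted p = 0.16). In these MAX peaks the E'-box was less frequent, with 5.12% against 13.1% (odds ratio 2.79, Fisher's exact test, adjusted p = 6.2e-07). Within the distal sites of background 10 or less, AP-1 was present in 24 of 75 without CACGTG in the window (32.0%) and in 50 of 248 with it (20.2%), an odds ratio of 1.86 (1.05 to 3.32, Fisher's exact test, p = 0.041, not adjusted).

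**Figure D4:**
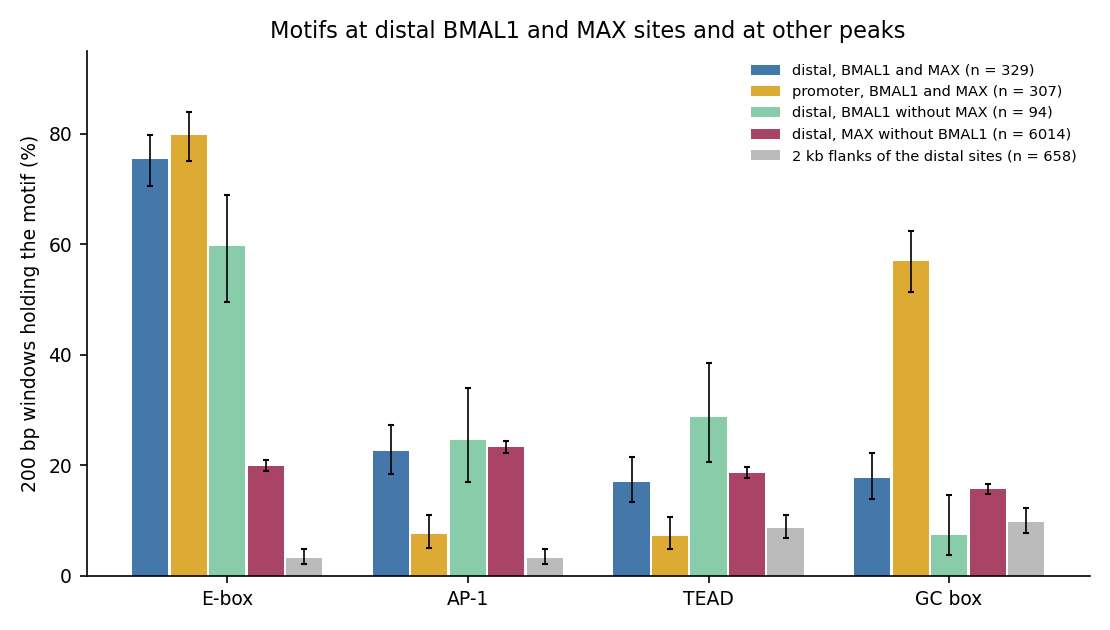
Share of 200 bp windows holding each motif (vertical axis in percent, starting at 0), with Wilson 95% intervals, for the distal sites bound by both factors, 3 other sets of peaks and the 2 kb flanks; windows are at BMAL1 summits except for the MAX peaks without BMAL1, which are at MAX summits. The E-box bar of the distal sites reaches 75.4%, near that of promoter sites, and their AP-1 bar 22.5%.

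Most of the sites were inside genes. The BMAL1 summit lay in an intron at 186 sites (56.5%, 51.1 to 61.8), between genes at 121 (36.8%), in a UTR or non-coding exon at 17 and in a coding exon at 5. Distal MAX peaks without BMAL1 had a similar split at their own summits, with 58.2% in introns and 32.8% between genes. Intron against intergenic position at MAX summits gave an odds ratio of 0.862 (0.681 to 1.09, Fisher's exact test, p = 0.22), so no difference was detected. E-boxes were present at 77.4% of intronic and 71.9% of intergenic sites, with median BMAL1 enrichment of 10.1 and 8.81.

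The BMAL1 summit was a median of 7194 bp (quartiles 2609 and 17424) from the nearest TSS of any transcript, the TSSs used to select the sites. The distance to the nearest protein-coding TSS was a median of 18811 bp (quartiles 6417 and 47403). It was under 1 kb at 19 sites, 1 to 5 kb at 51, 5 to 20 kb at 99, 20 to 100 kb at 120 and 100 kb or more at 40. The summit was upstream of that TSS at 162 sites and downstream at 167. The sites fell to 302 different genes, of which 22 had 2 or more. CADM1, GADD45B, a stress response gene, GSE1, SH3RF3 and VAC14 had 3 each. The CADM1 sites lay 118180 to 436703 bp from its TSS, and a pair of the SH3RF3 sites touched the same MAX peak. The share of genes with several sites among all distal MAX peaks was not computed.

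**Figure D5:**
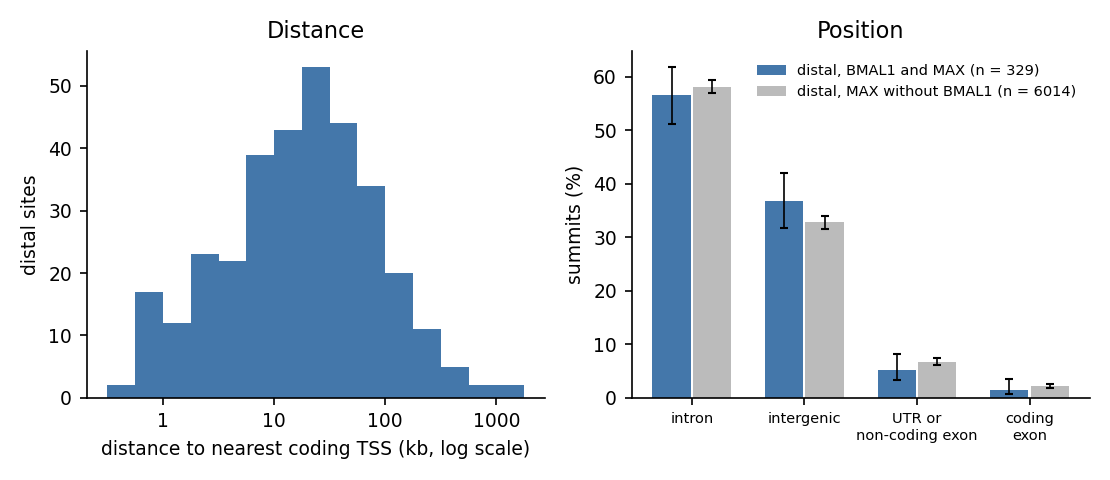
Left, number of distal sites by distance from the BMAL1 summit to the nearest protein-coding TSS (kb, log scale); right, percent of summits by annotated position with Wilson 95% intervals, for the distal sites and for distal MAX peaks without BMAL1. The distances centre on 18811 bp, and introns hold most summits of both sets.

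The sites were also placed by their distance to promoter sites bound by both factors. There were 7 (2.13%) within 10 kb of one and 17 (5.17%) within 50 kb. Another distal site bound by both was within 10 kb for 21 (6.38%). The matching shares of all distal MAX peaks were not computed for these distances. The nearest coding gene had a MAX peak at one of its TSSs for 119 sites (36.2%), near the 37% of all distal MAX peaks, and a promoter site bound by both for 16 (4.86%, against 2.67% of all distal MAX peaks). Chromosome 17, which holds NR1D1, CSNK1D, HLF and MNT, had 31 of the 329 sites and 68 of all 756 BMAL1 peaks.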

How the data were processed

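BMAL1 and MAX ChIP of MDA-MB-231 cells were analysed from 1 library each against 1 input. According to the submitters' processing notes, reads were aligned on hg19 with BWA 0.6.2 and peaks were called with MACS2 2.0.9, with SAMtools also named. The deposited pileup is a signal, the height of fragments extended to 300 bp at the summit. The deposited fold enrichment is the ratio of that pileup to the background that the peak caller took for the site. The −log10 p-values were written by the authors' peak caller. Per the file headers the p-value cutoff was 1e-05, while the methods give 1e-08, and all listed peaks were used. At most 2 tags per position were kept for BMAL1 and 1 for MAX, and at this depth an unlisted peak means only that none passed the cutoff.

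TSSs and gene models came from GENCODE 44 on GRCh37, the assembly named hg19, while the study took its promoters from a UCSC annotation not used here. A position was intronic if within a transcript of any type and outside the exons of all transcripts. Where several MAX peaks touched a site, the one sharing most bases was taken. The MAX peak taken was itself a promoter peak at 12 of the 329 sites, which stayed in the comparisons at MAX summits. Nearest genes were found from the BMAL1 summit, and motifs were searched on both strands of 200 bp windows and in 2 kb flanks. Windows with and without a motif were compared with two-sided Fisher's exact tests with Benjamini-Hochberg adjustment. Peak-call values, which chose the sites, were not tested as outcomes. They served once to split the sites into groups, between which the E-box was compared without adjustment.

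The sites named were the 10 of highest BMAL1 enrichment, the 5 of highest MAX enrichment, the 5 of highest ratio, the 3 of lowest BMAL1 enrichment, those of the clock and MYC network lists, of the 6 tied for most E-boxes the 3 with the highest BMAL1 enrichment, the tandem site and the 3 most enriched without an element. The adhesion list's members, other adhesion genes and the genes with 3 sites were added after their values were seen. The sites and lists were chosen with earlier results of these data known. The alternatives covered the p-value, overlap, promoter distance, TSS set, motif, window, flank and gene models, and, after the data were seen, leaving out sites of background over 10. Scripts were tested on simulated data. The tools were scipy 1.17.1, samtools 1.23.1, pysam 0.24.0, pandas 2.3.3, matplotlib 3.10.9 and numpy 2.4.6 on Python 3.11.15.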

Additional observations from a re-analysis of the deposited data

How the results depend on the processing

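Each of 12 results was recomputed under the alternatives that bear on it, 63 in all, of which 55 kept the result's direction and its side of the threshold, or its value within the error, and 0 reversed. At a p-value of 1e-12 in both lists, 197 sites remained, with a median enrichment of 11.1 for BMAL1 and 13.2 for MAX; at 1e-08 there were 316. The share of sites with an E-box was 80.5% with E'-boxes counted, 59.0% in 100 bp windows and 81.8% in 400 bp windows. The share of intronic summits was 48.3% with protein-coding gene models only. In an alternative chosen after the data were seen, leaving out sites of background over 10, the odds ratio of the E-box against distal BMAL1 peaks without MAX was 1.59 (adjusted p = 0.12, Fisher's exact test); over the other alternatives it was 1.78 to 2.78, with adjusted p from 0.00011 to 0.024. No paired analysis was possible because each antibody has 1 library. With that number, leaving out a library was not possible either, and the pileup of the sites, a median of 23 fragments for BMAL1 and 25 for MAX, limits the precision of each fold enrichment.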
